A study of Sus scrofa with 8 samples.

Results

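The leukocyte integrins and the adhesion molecules that pair with them were examined in pig liver before and after a diet that induces steatosis. The members are 9 gene symbols: the integrin subunits ITGAM, ITGAX, ITGAL, ITGB2, ITGA4 and ITGB1, the vessel wall ligands ICAM1 and VCAM1, and the selectin ligand SELPLG. A row with that symbol was found for 8 of the 9 among the 18103 rows of the expression table, and ITGAX had none. The rule takes rows by symbol and uses no measured value, but the set of symbols was proposed with earlier results of these data known, so the counts describe the set and are not those of a blind choice.

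Leukocytes leave the blood in steps. Selectins on endothelium and platelets bind the mucin-like protein encoded by SELPLG and slow the cells down, after which integrins, each made of 1 alpha and 1 beta chain, hold them to ligands of the immunoglobulin superfamily. The beta chain encoded by ITGB2 (CD18) is found on leukocytes and joins ITGAL (CD11a), ITGAM (CD11b) or ITGAX (CD11c), whereas the beta chain encoded by ITGB1 has many alpha partners in most cell types and joins ITGA4 on leukocytes to bind VCAM1.

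The study compared the hepatic transcriptome of pigs in their initial state with that of steatosis, by RNAseq of poly-A RNA. The initial state group comprised 4 libraries from male Landrace x Large White pigs aged 4 months that were labelled healthy and had received a control diet. The steatosis group comprised 4 libraries from male pigs of that cross, aged 6 months, after 2 months on a diet rich in saturated fat, fructose, cholesterol and cholate and poor in methionine and choline. Each library was a pool of RNA from 2 pigs, and the paper describes both groups as the same animals. Initial samples were biopsies taken by laparotomy under anaesthesia and final samples were taken after euthanasia, so diet, age and sampling cannot be told apart between the groups. Genotype is given only as breed, and no batch is given.

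Expression is in fragments mapped to a transcript, scaled to its length in kilobases and to the size of the library (FPKM), a level per length that can be set beside that of another gene. Pool 1 of the initial state stood apart by transcripts of other tissues. Summed over 6 skeletal muscle markers it held 2650 FPKM, against 0.84 to 19.2 in the other initial pools and 0.04 to 0.26 in steatosis, and over 6 stomach mucosa markers it held 1520 FPKM against 5.52 to 28.4 and 5.73 to 6.28. Hepatocyte markers dominated every library (50900 to 89900 FPKM, ALB leading), as the label liver states. The step between the lowest FPKM values put the depth of the libraries at 91.5% to 100.0% of the deepest, and the FPKM of the members then corresponded to about 90 fragments for the lowest value (ITGAM) and 3200 for the highest (ITGB1). In bulk liver, more cells of a type and more RNA per cell cannot be told apart, which holds for every value given here.

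A gene was called when its adjusted p was under 0.01 and its log2 fold change beyond 1, with limma on log2(FPKM + 0.1) and Benjamini-Hochberg adjustment over the 13175 genes that had at least 0.3 FPKM in at least 4 libraries. All 8 members found passed this filter. SELPLG, ITGB2, VCAM1, ITGAL and ICAM1 rose in steatosis, from 2.13 to 3.29 times their initial mean level, and ITGAM, ITGA4 and ITGB1 were not called. Thus 5 of 8 members were called higher, where 6.01% of all genes tested were, and 0 were called lower, where 0.334% were. At an adjusted p under 0.01 with no limit on the fold, 6 members passed, ITGAM being the one added, beside 12.9% of all genes. The 4 steatosis pools lay above the 4 initial pools for 6 members, beside 29.6% of genes, and below them for 0, beside 2.53%. The median log2 fold change of the members was 1.09 and that of all genes tested 0.25.

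The background itself was shifted upwards. Over all genes 792 were called higher and 44 lower (94.7% higher). With every library divided by its median ratio to the mean profile the median log2 fold change of all genes was -0.01, and 408 genes were called higher and 84 lower (82.9% higher). Under that scaling the log2 fold change was 1.41 for SELPLG, 1.24 for ITGB2 and 1.18 for VCAM1, which were still called, and 0.85 for ITGAL, 0.80 for ICAM1, 0.53 for ITGAM, 0.63 for ITGA4 and 0.00 for ITGB1, which were not. Thus relative to the median gene 3 members were called higher, and ITGB1 was level with it.

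**Figure D1:**
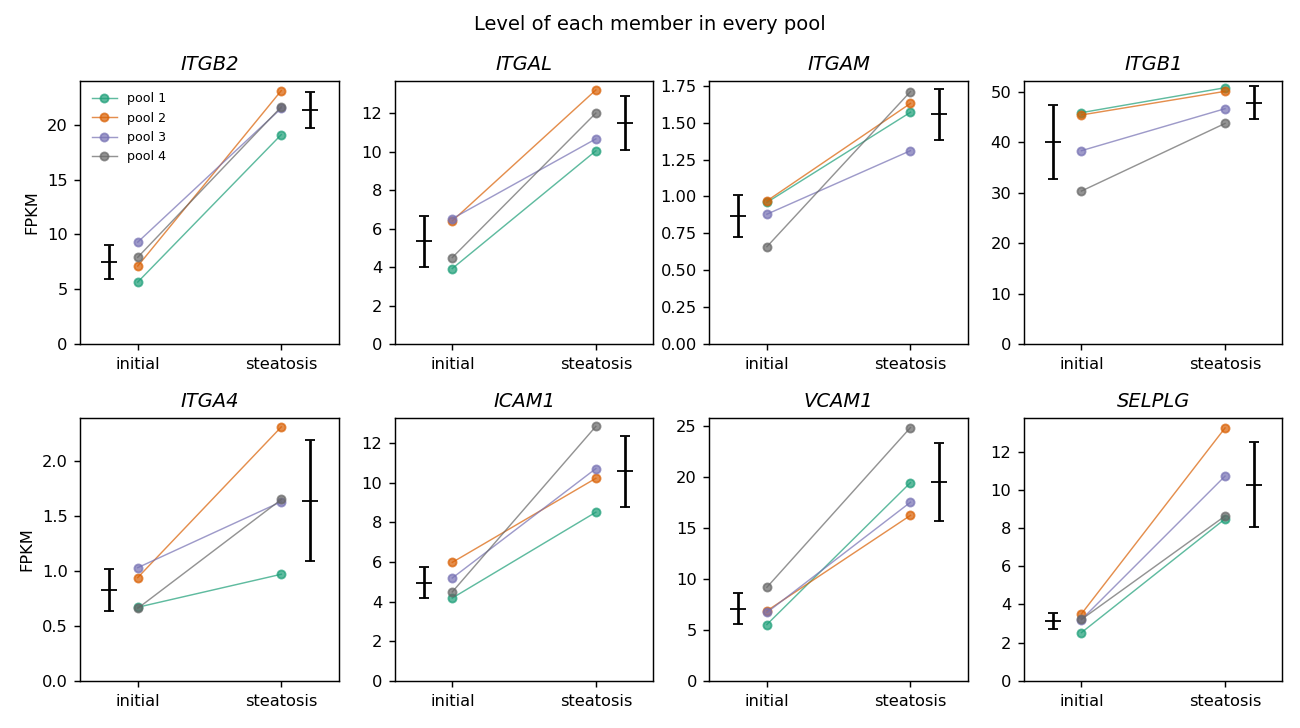
Level in FPKM (vertical axis, from 0, a separate scale for each gene) of the 8 members found, in the initial state and in steatosis. Points are pools, lines join pools of the same number, and the black bars beside them give the mean and SD of 4 pools. Only ITGA4 and ITGB1 have steatosis pools within the range of their initial pools.

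The beta chain shared by the leukocyte integrins, ITGB2, is encoded on chromosome 13 (chr13:207514281-207544108, Sscrofa11.1). Initial pools 1 to 4 held 5.66, 7.12, 9.3 and 7.92 FPKM, and steatosis pools 1 to 4 held 19.1, 23.11, 21.5 and 21.63 FPKM. The highest initial pool was below the lowest steatosis pool by a wide margin, and pool 1 was the lowest of each group. Its mean level (± SD, n = 4 pools here and throughout) rose from 7.5 ± 1.52 FPKM to 21.3 ± 1.66 FPKM, and the log2 fold change was 1.51 (SE 0.15, limma adjusted p = 0.000135). The coefficient of variation between pools was 20.3% in the initial state and 7.78% in steatosis, so the steatosis pools lay close together. An annotated pseudogene, LOC106508046, lies within the ITGB2 locus and has no row in the table, and whether it took reads from ITGB2 was not tested.

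ITGAL encodes the alpha chain that, with ITGB2, forms the receptor for ICAM1 on lymphocytes and other leukocytes (chr3:17817785-17858057). Before the diet its pools held 3.93, 6.4, 6.52 and 4.5 FPKM, and after it 10.04, 13.2, 10.66 and 12 FPKM. The groups did not overlap, and pools 1 and 4 were the low ones before the diet. The mean level rose from 5.34 ± 1.32 FPKM to 11.5 ± 1.41 FPKM, and the log2 fold change was 1.12 (SE 0.18, limma adjusted p = 0.0018). This call lay near the fold limit, since leaving out initial pool 1 gave a log2 fold change of 0.98 (limma adjusted p = 0.00269), which no longer passed it.

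ITGAM encodes the alpha chain of the complement and fibrinogen receptor of myeloid cells (chr3:17216719-17272134) and was far less abundant than either of its relatives. Its initial pools held 0.96, 0.97, 0.88 and 0.66 FPKM, against 1.57, 1.63, 1.31 and 1.71 FPKM in the steatosis pools. All steatosis pools were above all initial pools, with the smallest gap between initial pool 2 and steatosis pool 3. The mean was 0.868 ± 0.144 FPKM before and 1.55 ± 0.173 FPKM after the diet, and the log2 fold change of 0.78 (SE 0.17, limma adjusted p = 0.00801) was below the fold limit. When the pool number entered the fit as a block, its limma adjusted p was 0.0195, and the adjusted p ranged from 0.00593 to 0.0316 over the 16 alternatives of processing. An annotated long noncoding RNA, LOC110259903, overlaps ITGAM and has no row in the table, and whether reads from it were counted for ITGAM was not tested.

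ITGAX, the CD11c chain of dendritic cells and macrophages, could not be measured by its symbol. In the RefSeq annotation of Sscrofa11.1 the gene named ITGAX (chr3:17178725-17201388) lies between ITGAD and ITGAM and is classed as a long noncoding RNA, whereas 17775 of the 17778 known genes of the table are classed as protein coding. The table holds 3 new transcripts, assembled by the authors and without coordinates, that carry the orthology description integrin alpha X. They were not counted as members, since the description is shared and near-identical integrin genes can share reads. The transcript listed as BGI_novel_G000186 stood at 0.24, 0.79, 0.6 and 0.53 FPKM before the diet and at 2.81, 3.92, 3.86 and 2.09 FPKM after it. Its groups did not overlap, and its log2 fold change was 2.39 (SE 0.31, limma adjusted p = 0.000601), called higher. BGI_novel_G000185 was listed at 0 in initial pools 2 and 4, at 0.41 and 0.61 FPKM in pools 1 and 3, and at 0.42, 1.53, 1.25 and 2.1 FPKM in steatosis. Its groups overlapped, and its log2 fold change of 2.36 (SE 0.71, limma adjusted p = 0.0324) was not called. BGI_novel_G000184 stayed under 0.7 FPKM in every pool, with overlapping groups (log2 fold change 0.56, SE 0.41, limma adjusted p = 0.325). BGI_novel_G000185 and BGI_novel_G000186 thus had log2 fold changes of similar size but unlike spread, and that of BGI_novel_G000184 was smaller. The 3 transcripts do not give 1 value for ITGAX. The neighbouring ITGAD, the CD11d chain, measured 0.2, 0.57, 0.54 and 0.15 FPKM before and 0.2, 0.2, 0.13 and 0.12 FPKM after the diet, which did not pass the filter (exact two-sided permutation test, p = 0.171).

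**Figure D2:**
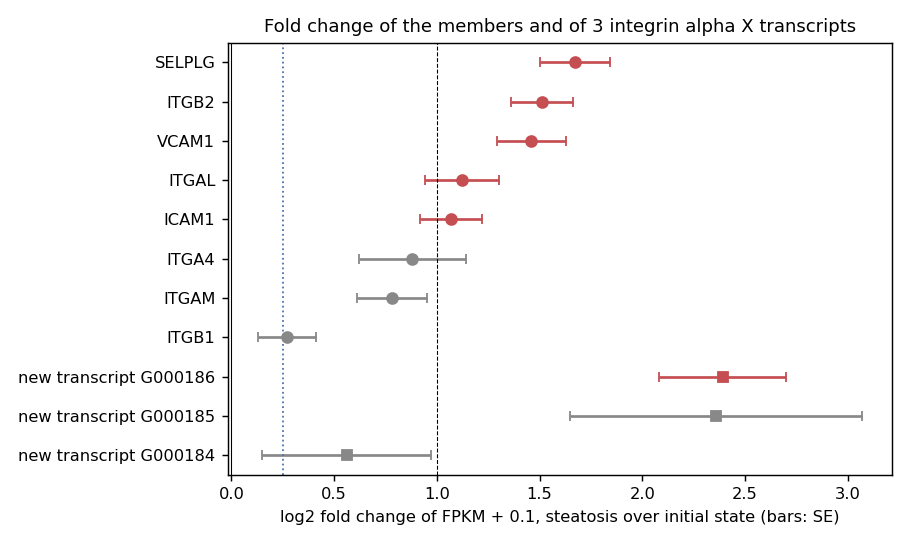
Log2 fold change of FPKM + 0.1, steatosis over initial state (horizontal axis), with bars of 1 SE, for the 8 members (circles) and 3 new transcripts described as integrin alpha X (squares). Red marks calls, the dashed line a log2 fold change of 1 and the dotted line the median of all genes tested (0.25). SELPLG, ITGB2 and VCAM1 stand clear of the dashed line by more than 1 SE, ITGAL and ICAM1 lie within 1 SE of it, and ITGB1 lies at the dotted line.

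The beta 1 chain and its alpha 4 partner were not called. ITGB1 (chr10:56078393-56130608), which anchors many cell types to matrix, was the most abundant member in each group. Before the diet its pools held 45.9, 45.44, 38.36 and 30.36 FPKM, and after it 50.84, 50.12, 46.68 and 43.76 FPKM. The groups overlapped, and pools 1 and 2 were the high ones in both. The means were 40.0 ± 7.30 and 47.9 ± 3.28 FPKM, and the log2 fold change of 0.27 (SE 0.14, limma adjusted p = 0.153) was close to the median of all genes.

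ITGA4 (chr15:86942054-87028428) encodes the alpha chain that binds VCAM1 and, as a partner of ITGB7, the gut addressin MADCAM1. Before the diet its pools held 0.67, 0.94, 1.03 and 0.66 FPKM, and after it 0.97, 2.31, 1.63 and 1.65 FPKM. Steatosis pool 1 fell within the range of the initial pools, and pool 2 was well above the others. The means were 0.825 ± 0.188 and 1.64 ± 0.547 FPKM, with a log2 fold change of 0.88 (SE 0.26, limma adjusted p = 0.0296) that was not called. Each pool was higher after the diet than the initial pool of its number, by 0.47 to 1.21 on the log2 scale, and the coefficient of variation between steatosis pools (33.4%) was the widest of any member in either group.

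Transcripts of the vessel wall ligands VCAM1 and ICAM1 rose, and bulk liver does not show which cells held them. VCAM1 (chr4:117496914-117511211), the endothelial ligand of the ITGA4 and ITGB1 pair, stood at 5.53, 6.87, 6.71 and 9.18 FPKM before the diet and at 19.44, 16.23, 17.52 and 24.84 FPKM after it. The groups were well separated, and pool 4 was the highest in both. The mean level rose from 7.07 ± 1.53 FPKM to 19.5 ± 3.79 FPKM, and the log2 fold change was 1.46 (SE 0.17, limma adjusted p = 0.000422).

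ICAM1 (chr2:69097136-69107722), the ligand of the ITGAL and ITGAM integrins on endothelium and other cells, stood at 4.18, 5.98, 5.19 and 4.49 FPKM before the diet and at 8.51, 10.22, 10.71 and 12.84 FPKM after it. Again the groups did not overlap, with pool 1 the lowest of each. The mean level rose from 4.96 ± 0.801 FPKM to 10.6 ± 1.78 FPKM, and the log2 fold change was 1.07 (SE 0.15, limma adjusted p = 0.00101). Its call also lay near the fold limit, since leaving out initial pool 1 gave 1.0 and leaving out steatosis pool 4 gave 0.98, neither of which passed it.

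SELPLG, whose product is the main selectin ligand of leukocytes (chr14:42158694-42178044), had the largest log2 fold change of the 8 members. Before the diet its pools held 2.53, 3.51, 3.21 and 3.22 FPKM, and after it 8.48, 13.24, 10.72 and 8.63 FPKM. Every steatosis pool was more than double any initial pool, and pools 2 and 3 were the high ones. The mean level rose from 3.12 ± 0.416 FPKM to 10.3 ± 2.23 FPKM, and the log2 fold change was 1.67 (SE 0.17, limma adjusted p = 0.000149).

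For each of the 6 members whose groups did not overlap, the exact two-sided permutation test of the mean FPKM gave p = 0.0286, the smallest that 4 pools against 4 allow. The same exact permutation test gave p = 0.0571 for ITGA4 and p = 0.114 for ITGB1. The pools did not rank alike across members: 5 of the 8 had their lowest initial value in pool 1 and 3 in pool 4, and after the diet 4 had their highest value in pool 2 (ITGB2, ITGAL, ITGA4 and SELPLG), 3 in pool 4 (ITGAM, ICAM1 and VCAM1) and 1 in pool 1 (ITGB1). With pool 1 of both groups left out, 5 members were still called higher, and with only pool 1 of the initial state left out 3 were.

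The order of the levels, which was compared per length in FPKM, was ITGB1, ITGB2, VCAM1, ITGAL, ICAM1, SELPLG, ITGAM and ITGA4 in the initial state. The ranges of ITGB2, VCAM1, ITGAL and ICAM1 overlapped from neighbour to neighbour, as did those of ITGAM and ITGA4, whereas ITGB1 lay above all and SELPLG lay between ICAM1 and ITGAM without touching either. In steatosis ITGB2 and VCAM1 formed an upper pair below ITGB1, with every pool above those of ITGAL, and SELPLG (10.3 FPKM) had a range that overlapped those of ICAM1 (10.6 FPKM) and ITGAL (11.5 FPKM). ITGA4 and ITGAM remained the lowest, with overlapping ranges.

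Ratios of FPKM within a library do not depend on how libraries are scaled against each other, so 7 of them were compared by an exact two-sided permutation test on log2 ratios, with Benjamini-Hochberg adjustment over the 7. ITGAM over ITGB2 was 0.17, 0.136, 0.0946 and 0.0833 in the initial pools and 0.0822, 0.0705, 0.0609 and 0.0791 in steatosis. All 4 steatosis ratios were below all 4 initial ratios, though initial pool 4 was only just above steatosis pool 1. The ratio was 0.626 times the initial one (difference of log2 ratios -0.68, SE 0.26, exact permutation p = 0.0286, adjusted p = 0.0667). The corresponding ratio of ITGAL was 0.759 times the initial one (difference of log2 ratios -0.40, SE 0.14, exact permutation p = 0.0571, adjusted p = 0.1), with steatosis pool 2 above initial pool 4 by a small margin. Both alpha chains were lower relative to ITGB2 in 4 of 4 pools, and neither difference passed the adjustment. For ITGAM over ITGB2 the p was already the smallest that the exact permutation test allows, so the adjustment could not decide.

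The common leukocyte antigen PTPRC (CD45) was used as a common denominator. PTPRC stood at 7.23, 9.91, 12.21 and 8.71 FPKM before the diet and at 11.73, 15, 14.44 and 13.49 FPKM after it, overlapping and not called (log2 fold change 0.54, SE 0.16, limma adjusted p = 0.0305). ITGB2 over PTPRC was 0.783, 0.718, 0.762 and 0.909 before and 1.63, 1.54, 1.49 and 1.6 after the diet. The steatosis ratios clustered tightly, well above the initial ones, at 1.98 times the initial ratio (difference of log2 ratios 0.99, SE 0.08, exact permutation p = 0.0286, adjusted p = 0.0667). SELPLG over PTPRC was 0.35, 0.354, 0.263 and 0.37 before and 0.723, 0.883, 0.742 and 0.64 after, 2.24 times the initial ratio (difference of log2 ratios 1.16, SE 0.15, exact permutation p = 0.0286, adjusted p = 0.0667). Both were higher in 4 of 4 pools, and neither passed 0.05 after the adjustment. Each had the smallest p that the exact permutation test allows, so the adjustment could not decide here either. These ratios depended on the leukocyte gene used as denominator, which was compared after the values were seen and with no test. ITGB2 was 1.04 times its initial ratio over LAPTM5 and over LCP1, with overlapping groups, 1.48 times over CD53 and 2.46 times over CORO1A. SELPLG was 1.17 times over LAPTM5, with overlapping groups, 1.18 times over LCP1, 1.67 times over CD53 and 2.78 times over CORO1A. Thus the near doubling over PTPRC did not hold over LAPTM5 and LCP1, whose own log2 fold changes were 1.47 and 1.46. As a description with no test, VCAM1, ITGAL and ICAM1 were also higher relative to PTPRC, by 1.9, 1.5 and 1.46 times with no overlap, whereas ITGA4, ITGAM and ITGB1 overlapped between the groups at 1.33, 1.24 and 0.831 times.

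The other 3 ratios overlapped between the groups. ITGA4 over ITGB1 was 0.0146 to 0.0269 before and 0.0191 to 0.0461 after the diet, higher in 4 of 4 pools (exact permutation p = 0.114, adjusted p = 0.16). VCAM1 over ICAM1 was 1.32, 1.15, 1.29 and 2.04 before and 2.28, 1.59, 1.64 and 1.93 after, higher in 3 of 4 pools and lower in pool 4 (exact permutation p = 0.171, adjusted p = 0.2). ITGAM over ITGAL was 0.135 to 0.244 before and 0.123 to 0.156 after, lower in 4 of 4 pools (exact permutation p = 0.229, adjusted p = 0.229). None of the 3 passed the test before or after the adjustment.

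**Figure D3:**
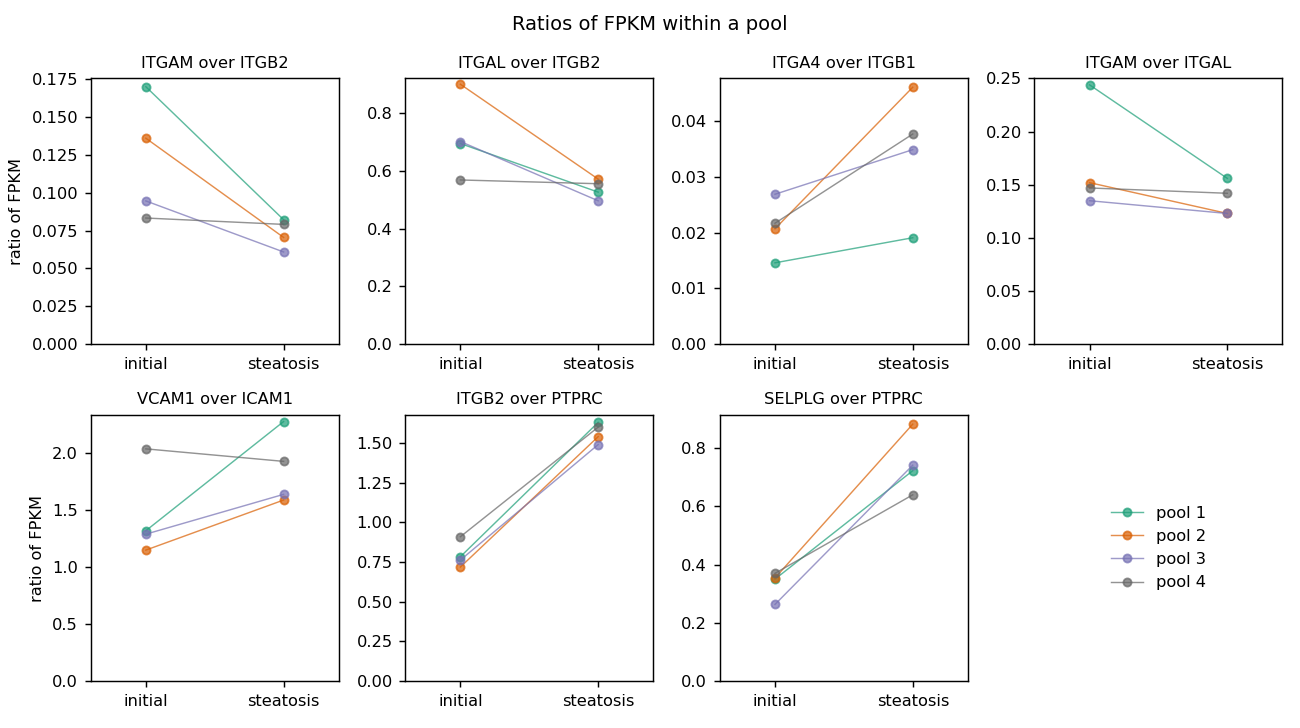
Ratio of the FPKM of 2 genes in the same pool (vertical axis, from 0), in the initial state and in steatosis, for the 7 ratios compared. Lines join pools of the same number. ITGB2 and SELPLG over PTPRC have all 4 steatosis pools above the initial ones, ITGAM over ITGB2 has them all below, and the other ratios overlap.

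The members were set beside 7 lists of other adhesion genes that hold 81 symbols, of which 77 were in the table and 69 passed the filter. Of these 6 were called higher, where 6.01% of all genes tested were, and 0 were called lower, where 0.334% were. The median log2 fold change was 0.28, close to the 0.25 of all genes tested. The same shares apply to the counts of each adhesion list and each cell type marker list below. Among integrin alpha chains outside the members 0 of 12 were called (median 0.09). ITGA9, a partner of ITGB1 that also binds VCAM1, had the largest size of log2 fold change among those with at least 1 FPKM, 0.59 (SE 0.12, limma adjusted p = 0.0051), and was not called. ITGA5, the fibronectin receptor chain, measured 11 ± 3.23 FPKM before and 14.0 ± 1.48 FPKM after, and ITGAV 4.19 ± 0.778 and 3.56 ± 0.62 FPKM, both with overlapping groups.

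Among beta chains 1 of 5 was called (median 0.17). ITGB3 rose from 1.49, 1.59, 1.59 and 1.7 FPKM before the diet to 6.96, 7.91, 6.34 and 6.2 FPKM after it. These groups lay far apart with little spread in either, and the log2 fold change of 2.03 (SE 0.12, limma adjusted p = 1.04e-05) was above that of every member. The partners of ITGB3 are ITGAV, given above, and the platelet chain ITGA2B, which was looked up after the values were seen and measured 2.80 ± 0.76 FPKM before and 2.60 ± 0.0812 FPKM after the diet with overlapping groups. Of 5 listed platelet markers 4 were in the table, and they summed to 0.41 to 0.74 FPKM before and 0.72 to 0.94 FPKM after.

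In the list of selectins and their ligands 1 of 7 was called (median 0.35). MADCAM1, the addressin bound by ITGA4 with ITGB7, rose from 3.10 ± 0.645 FPKM to 7.10 ± 1.94 FPKM (log2 fold change 1.16, SE 0.21, limma adjusted p = 0.00327). A block on the pool number gave it an adjusted p of 0.0108, without steatosis pool 2 it was 0.0112, without pool 1 of both groups it was 0.0183, and without steatosis pool 4 its log2 fold change was 0.99, each of which ended the call. It was also not called with upper quartile scaling (0.93), median ratio scaling (0.89) or a pseudocount of 1 (0.97). CD44, a hyaluronan receptor that also binds selectins, measured 9.52 ± 1.74 and 13.6 ± 0.45 FPKM without overlap and was not called (limma adjusted p = 0.0174).

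Binding of SELPLG to selectins depends on sulfated tyrosines and sialylated, fucosylated glycans. Of 6 enzymes for these steps that passed the filter 1 was called (median 0.75). The sialyltransferase ST3GAL4 rose from 2.93 ± 0.565 FPKM to 6.64 ± 0.694 FPKM (log2 fold change 1.17, SE 0.15, limma adjusted p = 0.000637), a call that median ratio scaling (0.90), upper quartile scaling (0.94) and a pseudocount of 1 (0.97) ended. The tyrosine sulfotransferase TPST2 measured 3.94 ± 0.526 and 7.22 ± 0.961 FPKM without overlap, and its log2 fold change of 0.86 (SE 0.14, limma adjusted p = 0.00195) was below the fold limit. B4GALT1, a galactosyltransferase, was not called either (log2 fold change 0.46, limma adjusted p = 0.0255).

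In the immunoglobulin superfamily outside the members 1 of 12 was called (median 0.34). SIRPA, a myeloid receptor for CD47, rose from 7.80 ± 1.21 FPKM to 17.5 ± 1.05 FPKM (log2 fold change 1.17, SE 0.12, limma adjusted p = 0.000191), and was not called with median ratio (0.89) or upper quartile scaling (0.93). ICAM2, the other endothelial ligand of ITGAL, measured 7.16 ± 1.99 and 12.7 ± 1.29 FPKM (log2 fold change 0.85, SE 0.17, limma adjusted p = 0.006), and it passed at 1.03 once initial pool 1, its highest before the diet at 10.04 FPKM, was left out. PECAM1, at the junctions that leukocytes cross, measured 13.0 ± 1.43 and 21.8 ± 1.01 FPKM without overlap (log2 fold change 0.74, SE 0.10, limma adjusted p = 0.000754), below the fold limit.

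Integrins bind firmly only once talin and kindlin attach to the beta chain inside the cell. Of 18 genes for integrin activation and linkage to actin 1 was called (median 0.33). It was FERMT3, the kindlin of blood cells, which rose from 2.65, 3.07, 3.72 and 3.66 FPKM before the diet to 7.43, 9.43, 8.43 and 7.89 FPKM after it (log2 fold change 1.32, SE 0.14, limma adjusted p = 0.000189). No pools overlapped, and the size was between those of ITGAL and VCAM1. Talin 1 (TLN1) measured 16.5 ± 2.98 and 26 ± 2.44 FPKM without overlap and with a log2 fold change of 0.67 (SE 0.14, limma adjusted p = 0.00684), below the fold limit, and the kinase PTK2B had 0.58 (limma adjusted p = 0.0214).

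Among extracellular ligands of the member integrins 1 of 9 was called and the median was -0.15. Osteopontin (SPP1), a ligand of the ITGA4 and ITGB3 integrins, stood at 4.68, 9.64, 4.16 and 6.01 FPKM before the diet and at 74.38, 226.52, 201.44 and 103.63 FPKM after it. It was high in every steatosis pool, highest in pool 2, with a log2 fold change of 4.54 (SE 0.37, limma adjusted p = 5.6e-05). The fibrinogen chains that ITGAM binds were lower without passing the fold limit, FGG with a log2 fold change of -0.51 (SE 0.09, limma adjusted p = 0.00355) and FGA with -0.50 (SE 0.10, limma adjusted p = 0.00434). MFGE8 and fibronectin (FN1) were not called, with log2 fold changes of 0.93 and 0.52, though MFGE8 passed at 1.03 without initial pool 1 and without steatosis pool 3.

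**Figure D4:**
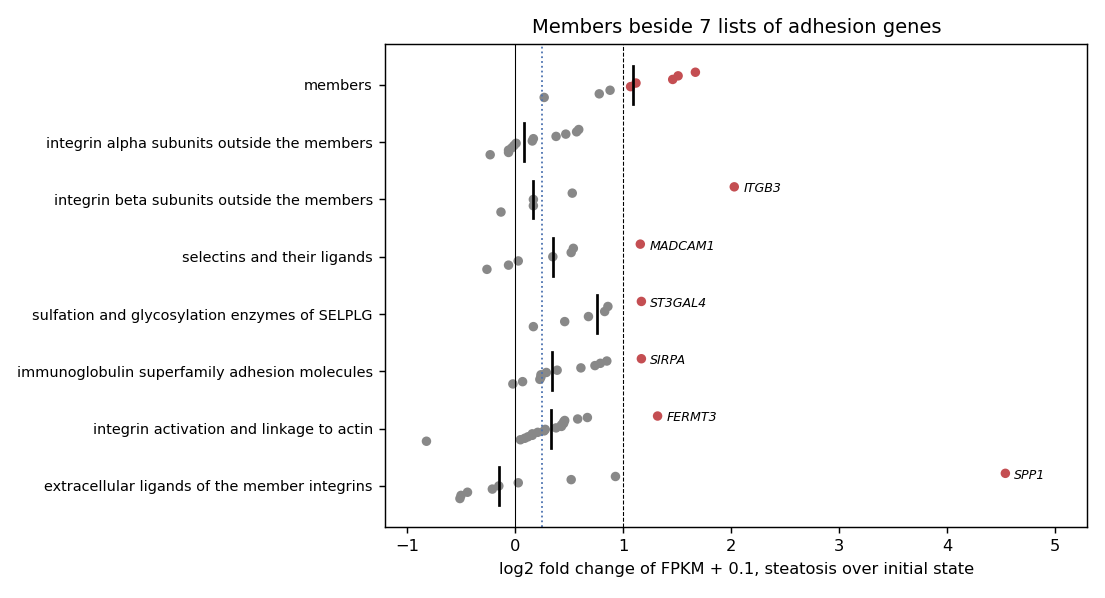
Log2 fold change of FPKM + 0.1, steatosis over initial state (horizontal axis), for the 8 members and for the genes of 7 adhesion lists that passed the filter (points, red where called and then named in the lists). Black bars are medians, the dotted line is the median of all genes tested and the dashed line a log2 fold change of 1. The median of the members (1.09) lies to the right of those of the 7 lists, which run from -0.15 to 0.75.

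Markers of the cells that carry these molecules also differed between the groups, and their part in the members' values was not tested. The sum of 5 pan-leukocyte markers was 68.4 to 103 FPKM in the initial pools and 172 to 216 FPKM in steatosis, with 2 of the 5 called higher: LAPTM5 (log2 fold change 1.47) and LCP1 (1.46), each close in size to ITGB2. Initial pool 1, the lowest for 5 members, was also the lowest in this sum. For 12 macrophage or Kupffer cell markers the sum was 900 to 1250 and 1320 to 1540 FPKM, with 2 called higher, the scavenger receptors MARCO (3.33) and MSR1 (2.35), and a median log2 fold change of 0.63. In 8 of the 12 all steatosis pools lay above all initial pools, beside 29.6% of all genes tested. VSIG4 (log2 fold change 0.94) and AIF1 (0.90) were among these and were below the fold limit. Not every marker rose in this way. CD163 measured 23.1 ± 3.99 and 28.7 ± 2.38 FPKM with overlapping groups. CD5L, at 190 ± 36.7 and 148 ± 10.4 FPKM, was lower in every steatosis pool than in any initial pool without being called (log2 fold change -0.34).

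For 12 T or NK cell markers the sum was 47.3 to 77 and 92.6 to 105 FPKM, with NKG7 (1.36) and CD4 (1.12) called higher. The sum leaned on these genes, whose means went from 13.5 to 34.6 FPKM (NKG7) and from 8.21 to 18.1 FPKM (CD4). The median log2 fold change of the list was 0.29, close to the 0.25 of all genes tested. In 3 of the 12 all steatosis pools lay above all initial pools, beside 29.6% of all genes. The T cell receptor component CD3E measured 7.42 ± 2.38 and 8.87 ± 1.95 FPKM, with overlapping groups. For 6 monocyte markers the ranges of the sum overlapped (200 to 239 and 164 to 221 FPKM), 0 were called, and the median log2 fold change was 0.36. CD14 made up most of this sum, at 204 ± 16.5 and 179 ± 18.5 FPKM. CCR2 measured 0.745 ± 0.356 and 1.39 ± 0.264 FPKM with overlapping groups (log2 fold change 0.89, limma adjusted p = 0.0459). The 9 neutrophil markers summed to 4.56 to 8.81 and 7.87 to 10.5 FPKM, with CSF3R (1.49) called higher and a median log2 fold change of 0.0 over the 4 that passed the filter. The granule genes MPO, ELANE, MMP8, LTF and PGLYRP1 did not pass it, at most 0.52 FPKM in any pool. Of these MPO was higher in every steatosis pool than in any initial pool, at means of 0.015 and 0.188 FPKM. The other 3 neutrophil markers that passed were S100A9 (-0.66), S100A8 (-0.17) and CXCR2 (0.18), all with overlapping groups and not called, and the sign of S100A8 turned with a left-out library and that of CXCR2 with the scaling. Dendritic cell markers, of which 0 of 5 were called, summed to 3.55 to 5.08 and 5.71 to 7.79 FPKM.

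The 6 markers of B or plasma cells went the other way, from 17.7 to 46.9 FPKM down to 11.7 to 16.1 FPKM, with MS4A1 (CD20) called lower (log2 fold change -1.23, SE 0.28, limma adjusted p = 0.00937). That call was lost, with adjusted p values of 0.0134 to 0.0298, in 7 of the 8 fits that left out 1 library, all but the one that lacked initial pool 1. Endothelial markers, relevant to ICAM1 and VCAM1, summed to 140 to 184 and 200 to 208 FPKM, with 0 of 10 called and a median log2 fold change of 0.47. Stellate cell markers, of which LRAT alone was called higher (1.25), summed to 60.7 to 243 and 121 to 300 FPKM, with pools 1 and 4 the highest of the steatosis group. The 243 FPKM was initial pool 1, which also held transcripts of other tissues, and the other initial pools held 60.7 to 139 FPKM. The share of those tissues in the sum was not tested.

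SELPLG, ITGB2 and VCAM1 were called under all 16 alternatives of processing, with log2 fold changes of 1.41 to 1.76, 1.24 to 1.62 and 1.18 to 1.59. ITGAL ranged from 0.85 to 1.22 and ICAM1 from 0.80 to 1.17, and their adjusted p never exceeded 0.00755 and 0.00442, so that the calls they lost were lost on the fold and not on the p. ITGA4 (0.51 to 1.09), ITGAM (0.45 to 0.86) and ITGB1 (0.00 to 0.35) were called under none.

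**Figure D5:**
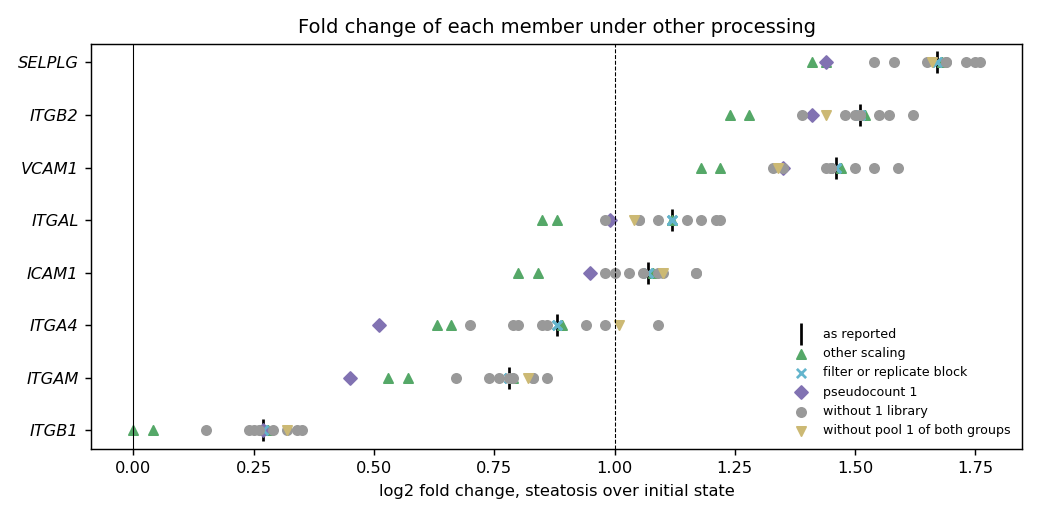
Log2 fold change of each member, steatosis over initial state (horizontal axis), as reported (black bar) and under 16 alternatives: 3 other scalings, 2 other filters and the replicate block, a pseudocount of 1, each of the 8 libraries left out, and pool 1 of both groups left out. The dashed line marks a log2 fold change of 1. SELPLG, ITGB2 and VCAM1 stay to its right throughout, and ITGAL and ICAM1 fall on both sides.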

How the data were processed

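Hepatic RNA was measured in 8 libraries, 4 per group, grouped by the labels. Reads were mapped by the authors to Sus scrofa 11.1 with HISAT2 2.0.4, new coding transcripts from StringTie were added to the reference, and the authors computed FPKM with Bowtie2 2.2.5 and RSEM 1.2.12. No scaling between libraries and no strand setting is given in the sources used here, and FPKM of low genes rest on few fragments. The FPKM deposited by the authors were analysed as they stand. The authors' comparisons of single pools hold log2 fold changes, p-values and FDR, which were not used. Only gene lengths came from them. Coordinates are those of RefSeq for assembly Sscrofa11.1, matched by gene ID for all 17778 known genes. The 325 new transcripts have none.

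The filter kept a gene at 0.3 FPKM or more in 4 or more libraries. Groups were compared with limma 3.58.1 under R 4.3.3 (trend option, group as the only term), using log2(FPKM + 0.1), a scale that understates changes of low genes. The limits are those of the study. Ratios used no pseudocount. The planned ratios of ITGAX over ITGB2 and over ITGAM could not be computed. Tables and plots used Python 3.11.15, numpy 2.4.6, pandas 2.3.3 and matplotlib 3.10.9. Depth was estimated from FPKM steps in genes of 400 to 600 bases. The SD between pools stands for precision.

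Libraries with the same pool number were treated as pairs in an alternative, although no source says which pigs a pool holds: their deviations from the group mean correlated at 0.163, 0.35, 0.317 and 0.247 for pools 1 to 4. P-values measure the spread between pools of 2 pigs. The gene lists, like the members, were chosen with earlier results of these data known. The genes named are the members, at most 4 of each list by size of log2 fold change among those with at least 1 FPKM in a group, list members called lower, and PTPRC. FGA, ITGAD, ITGA2B, ALB, CD3E, CD163, CD5L and the neutrophil granule genes were named after their values were seen. Alternatives were 3 scalings, no filter, a filter on 7 libraries, a pseudocount of 1, the pool number as a block, leaving out each library, and, chosen after seeing the data, pool 1 of both groups left out, an adjusted p with no fold limit and other denominators for ITGB2 and SELPLG.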

Additional observations from a re-analysis of the deposited data

Results flagged for a closer look

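In 30 groups of 4 values (each member's FPKM and each ratio, by group), 1 value stood apart from the other 3 of its group by Dixon's criterion (FPKM on the linear scale, ratios on the log2 scale), which chance meets in about 1 of 20 groups. It was the ratio of SELPLG over PTPRC in initial pool 3, which was 0.263 against 0.35, 0.354 and 0.37. Its gap to the nearest value was 0.839 of the group's range on the log2 scale, just above the critical value, and 0.815 on the linear scale, just below it. In that pool PTPRC was the highest of the initial state at 12.21 FPKM and SELPLG, at 3.21 FPKM, was close to pool 4.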

How the results depend on the processing

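The count of members called higher was 5, and it was 3 with upper quartile scaling, with median ratio scaling and with a pseudocount of 1, where ITGAL and ICAM1 missed the fold limit. Leaving out 1 library gave 3 to 5 (3 without initial pool 1, 4 without steatosis pool 4). Over all genes 439 were called higher and 74 lower with upper quartile scaling, 408 and 84 with median ratio scaling, and 395 higher with a pseudocount of 1. Leaving out 1 library gave 573 to 788 higher and 26 to 51 lower, against 44, with the count of lower genes at 29 without initial pool 2, 28 without steatosis pool 2 and 26 without steatosis pool 4. Of the adhesion lists 6 genes were called higher, and 3 (ITGB3, FERMT3 and SPP1) with either upper quartile or median ratio scaling, which also ended the call of CD4, as median ratio scaling did for LRAT. With the replicate block 5 members were called higher, as before, 785 genes were called higher and 57 lower, and 5 adhesion list genes were called higher, MADCAM1 being lost. The block changed no member's call. Ratios with no overlap between groups numbered 3, and 3 to 5 when 1 library was left out (5 without initial pool 4). In the paired view, with the pool number as a replicate block, 6 of the 7 ratios had 1 sign in all 4 pools, for which the sign-flip p is 0.125, the smallest that 4 pairs allow. No member changed direction under any of the 16 alternatives. S100A8 had log2 fold changes of -0.44 to 0.46 when 1 library was left out (0.01 without initial pool 3, 0.46 without steatosis pool 2), and CXCR2 of -0.05 with upper quartile and -0.08 with median ratio scaling, signs that differ from the reported ones, and the cause was not tested. FPKM gives no count of reads. The members with an initial mean under 1 FPKM, ITGAM and ITGA4, had the lowest levels. Their coefficients of variation between initial pools, 16.6% and 22.8%, were both below the 24.7% of ITGAL.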
